A study of Mus musculus with 64 samples.

Results

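Transcripts of 34 genes were followed in cultured mouse CD4 T cells: 20 tRNA synthetases of the cytosol, ATF4 (Atf4) with 5 stress regulators linked to it, 6 enzymes of amino acid synthesis and 2 mitochondrial one-carbon enzymes. The genes were taken by symbol from the deposited table of 23134 genes, and all 34 had 1 entry each and passed the filter on low counts. The CD4 T cells came from spleens of C57BL/6J mice. All groups carried Cd4-Cre-ERt2, a tamoxifen-dependent Cre recombinase driven from Cd4, and were given 4-OH-tamoxifen. Control cells (WT) had Cd4-Cre-ERt2 with no floxed gene, DKO cells had floxed Rc3h1 and Rc3h2, KO cells had floxed Zc3h12a, and TKO cells had all 3 floxed. Rc3h1 and Rc3h2 encode Roquin-1 and Roquin-2 and Zc3h12a encodes Regnase-1, RNA-binding proteins that repress mRNAs of T cell activation. Cells were activated with antibodies to CD3 and CD28 under Th1 conditions for 40 h, kept in IL-2 for 2 days, and then left unstimulated (0 h) or restimulated with the same antibodies for 1, 2 or 4 h. Each of the 16 genotype-by-time groups held 4 libraries, and the ages of the mice were not given in the sources used here.

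Aminoacyl-tRNA synthetases join each amino acid to its tRNA and so supply the ribosome. ATF4 is a transcription factor whose mRNA is translated more when the initiation factor eIF2 is phosphorylated, for example when amino acids run short or the endoplasmic reticulum is stressed. It is known to raise transcription of genes for amino acid synthesis, amino acid transport, mitochondrial one-carbon metabolism and many cytosolic tRNA synthetases, and T cells need these functions when they start to grow after activation.

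Values are normalized counts, rescaled so that libraries are comparable, and libraries are named by their place in the deposited list of their group. Changes are log2 differences ± SE with n = 4 libraries a group, tested with limma over 16140 genes, and a gene was called at a Benjamini-Hochberg adjusted p under 0.05. The libraries held 5369873 to 11666589 reads. The summed level of 5 T cell markers was 324 to 1038 CPM (counts scaled to library depth) in every library, against 0 to 6.85 for 4 B cell markers, 2.18 to 10.8 for 4 myeloid markers and 0 to 0.812 for 2 NK cell markers. It was 3.43 to 51.5 CPM for 2 CD8 T cell markers, 0.950 to 16.6 for 3 dendritic cell markers, and 0 to 2.92 for 1 erythroid and 0 to 0.553 for 1 neutrophil marker. Rc3h1 was lower than in WT at all 4 times in DKO cells (log2 differences of -0.32 at 0 h to -1.17 at 4 h). Zc3h12a was lower in KO cells at 1 and 2 h (-0.72 and -0.63) but not at 0 or 4 h (0.33 and -0.16, adjusted p = 0.592 and 0.505). In TKO cells it was higher at 0 h (0.60) and lower at 1 and 2 h (-0.92 and -0.79), and Rc3h2 was not lower in DKO or TKO cells. These counts are over whole genes and the sources do not say which exons were floxed, so they check the labels only in part. In bulk samples, fewer cells of a type and less RNA per cell cannot be told apart.

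Promoters are shown because ATF4 binds, with C/EBP partners, an element with the letters TGATGNAA, and the genes below differ in whether their promoter holds it. RefSeq promoters (GRCm38.p6, 250 bases before to 50 after the start) were found for 27 of the 34 genes. Searched on both strands, TGATGNAA was present in 9 of these 27 promoters (33.333%) and in 4.511% of 27025 genes with a promoter entry. The 9 were Trib3, Chac1, Asns, Pycr1, Aars, Gars, Iars, Tars and Yars. A match describes the letters only and is not a measured binding site. Shares of genes for both motifs are over all with a promoter entry, not only the 16140 tested. The 34 were listed in part for their link to ATF4, so the shares are a description and not a test. Windows of 30 bases are given 5′ to 3′ on the gene's strand with the element, or its reverse complement, in capitals.
Asns, chr6:7693214-7693243, minus strand: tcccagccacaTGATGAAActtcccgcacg
Trib3, chr2:152344028-152344057, minus strand: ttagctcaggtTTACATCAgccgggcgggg
Chac1, chr2:119351038-119351067, plus strand: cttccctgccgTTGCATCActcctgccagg
Pycr1, chr11:120643833-120643862, minus strand: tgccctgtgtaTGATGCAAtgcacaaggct
Iars, chr13:49682126-49682155, plus strand: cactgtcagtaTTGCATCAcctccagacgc
Tars, chr15:11399655-11399684, minus strand: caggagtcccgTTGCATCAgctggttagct
Yars, chr4:129189895-129189924, plus strand: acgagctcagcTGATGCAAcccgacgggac
The E-box CACGTG, which MYC and related factors bind, was in 5 of the 27 promoters (Aldh18a1, Aars, Farsb, Iars and Tars; 18.519%) against 8.093% of genes, and 3 promoters held both motifs (Aars, Iars and Tars).

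Most of these transcripts rose on restimulation of WT cells, and most of those rises were in place by 2 h. At 1 h 13 of the 34 rose and 1 fell, while 18.7% of all genes tested were called higher and 12.4% lower. The 1 h counts depended on the processing. With upper-quartile factors 7 rose and 4 fell (13.6% and 23.6% of all genes). With the deposited scaling 21 rose and 1 fell (24.8% and 7.96%). When only the groups compared were fitted 5 rose and 1 fell (12.9% and 10.2%). At 2 h 20 rose and 2 fell, against 26.5% and 25.5% of all genes. At 4 h 24 rose and 3 fell, against 24.6% and 27.1%. The median change of the 34 was 0.31, 0.83 and 0.91 at 1, 2 and 4 h, and that of all genes was -0.10, -0.16 and 0.01. From 1 to 2 h 19 rose and 3 fell (16.6% and 18.9% of all genes), whereas from 2 to 4 h 4 rose and 3 fell (9.24% and 19.1%). The comparisons with 0 h share the same 0 h libraries.

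**Figure D1:**
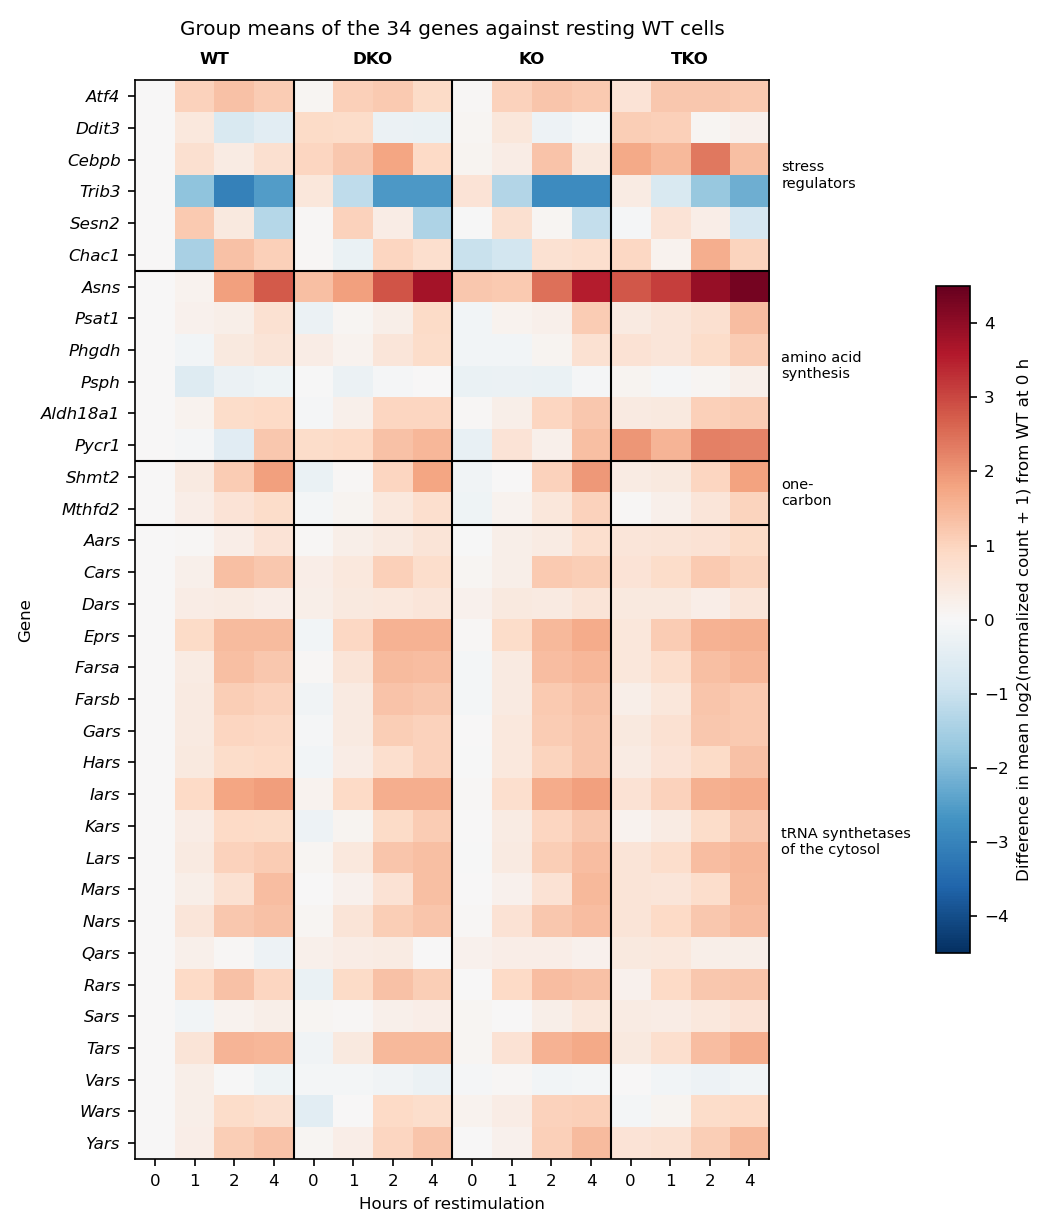
Difference of each group's mean log2(normalized count + 1) from WT cells at 0 h, for the 34 genes (vertical axis) at 0, 1, 2 and 4 h of restimulation in the 4 genotypes (horizontal axis). Most tRNA synthetases are higher at 2 and 4 h in every genotype, Trib3 is lower, and Asns is already higher at 0 h in TKO cells.

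Among the regulators, Atf4 itself rose early. Its normalized counts were 295, 329, 409 and 232 in the WT libraries at 0 h and 849, 577, 599 and 555 at 1 h. At 2 h they were 622, 815, 1152 and 629, and at 4 h 578, 626, 632 and 1005. All restimulated libraries lay above all 0 h libraries. The changes were 1.03 ± 0.19 (adjusted p = 1.35e-05), 1.33 ± 0.19 (2.51e-08) and 1.16 ± 0.19 (5.34e-07).

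Trib3, a pseudokinase that is induced by ATF4 and restrains it, went the other way. Its WT values were 63.3, 48.0, 91.0 and 115 before restimulation. They were 23.5, 29.3, 12.8 and 19.9 after 1 h, and after 2 h 5.82, 4.07, 14.5 and 12.2. No library after restimulation reached the lowest 0 h library. Trib3 fell by 1.82, 3.05 and 2.50 on the log2 scale at 1, 2 and 4 h (limma adjusted p = 0.00038, 7.26e-09 and 7.14e-07).

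Sesn2, which encodes a leucine sensor that restrains mTORC1, rose and then fell. Its values were 269, 287, 228 and 217 before restimulation. They were 545, 663, 498 and 546 after 1 h, and after 4 h 79.7, 92.8, 88.3 and 163. The 1 h libraries were all above and the 4 h libraries all below those at 0 h. The changes were 1.17 ± 0.28 at 1 h (adjusted p = 0.000753), 0.46 at 2 h (0.174) and -1.28 ± 0.28 at 4 h (9.73e-05).

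The other regulators moved less clearly. Ddit3, which encodes the stress factor CHOP, was called lower at 2 h (-0.70, adjusted p = 0.0299). That call was lost on leaving out library 2 or 3 of WT at 0 h (0.0546 and 0.11) or library 1 or 4 of WT at 2 h (0.0783 and 0.0811). Ddit3 overlaps Mars on the opposite strand only at their ends (Ddit3 ends at chr10:127296288 and Mars begins at 127296221). Mars had 654.61% as many reads, and the strand setting of the counting was not given. Chac1, a glutathione-degrading enzyme, had 0 to 6 reads a library at 0 and 1 h. Its changes from 0 h were -1.45 at 1 h and 1.33 at 2 h (adjusted p = 0.0599 for each), and it rose from 1 to 2 h by 2.78 ± 0.60 (0.000165). Cebpb, a partner of ATF4, was called at no time.

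Asns, asparagine synthetase, rose more from 0 h than any other of the 34 genes in WT cells at 2 and 4 h, though it was not called at 1 h. Its values were 13.1, 12.9, 34.3 and 16.3 at 0 h and 29.8, 11.97, 27.0 and 16.1 at 1 h. After 2 h they were 49.4, 57.0, 99.0 and 67.0, and after 4 h 100.5, 114, 103 and 207. The 0 and 1 h libraries overlapped, and those at 2 and 4 h lay above both. The changes were 0.17 (adjusted p = 0.737), 1.84 ± 0.34 (5.42e-06) and 2.76 ± 0.34 (4.41e-10). Per kb of exon, Asns nevertheless remained among the lower transcripts, with 7.003 normalized counts per kb at 0 h and 48.01 at 4 h, when Iars had 422.7.

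Of the 6 enzymes of amino acid synthesis, 0 rose at 1 h, 2 at 2 h and 4 at 4 h (18.7%, 26.5% and 24.6% of all genes). Aldh18a1, the first enzyme of proline synthesis, rose by 0.82 at 2 h and 0.91 at 4 h. The serine synthesis enzymes Psat1 and Phgdh rose at 4 h alone among the 3 times, by 0.69 ± 0.17 (adjusted p = 0.000343) and 0.59 ± 0.20 (0.00959). The Phgdh call was lost without library 4 of WT at 0 h (0.32, adjusted p = 0.167) or at 4 h (0.45, 0.0692). Psph, the last enzyme of serine synthesis, and Pycr1, the last of proline synthesis, were not called against 0 h. Pycr1 was called higher from 2 to 4 h (1.71 ± 0.61, adjusted p = 0.0296), a call lost in 7 alternatives, 5 of which left out 1 library (library 1 or 4 at 2 h, or library 1, 2 or 3 at 4 h; 1.20, adjusted p = 0.165 without library 1 at 2 h). Psph overlaps Cct6a on the opposite strand, and Pycr1 had 0 to 7 reads a library in WT cells at 0 h.

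Both mitochondrial one-carbon enzymes rose at 2 and 4 h. Shmt2, which splits serine to give one-carbon units, had values of 382, 351, 433 and 215 before restimulation and 1130.0, 1239, 1077 and 1424 after 4 h, with no overlap. Its changes were 1.14 ± 0.20 at 2 h (adjusted p = 2.09e-06) and 1.85 ± 0.20 at 4 h (8.26e-12). Mthfd2, which oxidizes those units, rose by 0.63 and 0.83 ± 0.18.

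The 20 synthetases rose more evenly. Of them 11 rose at 1 h, 15 at 2 h and 17 at 4 h, against 18.7%, 26.5% and 24.6% of all genes. At 4 h 1 fell, against 27.1%. Their median changes were 0.36, 1.00 and 1.00. Iars, which charges tRNA with isoleucine, had values of 598, 669, 659.7 and 518 at 0 h and 1168, 1137, 1043 and 1215 at 1 h. They were 2095, 1901, 2264 and 2046 at 2 h and 2103, 2124, 2339 and 2349 at 4 h. No group overlapped that at 0 h, and those at 2 and 4 h overlapped each other. The changes were 0.90, 1.77 and 1.87 ± 0.10 (adjusted p = 1.16e-22 at 4 h).

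The other large rises at 4 h were in Tars (threonine, 1.51), Eprs (glutamate and proline, 1.44), Mars (methionine, 1.39), Nars (asparagine, 1.30), Yars (tyrosine, 1.29), Cars (cysteine, 1.23) and Farsa (a phenylalanine synthetase subunit, 1.22). Their timing differed. Eprs had already risen by 0.86 ± 0.10 at 1 h and Rars (arginine) by 0.90 ± 0.09. Cars and Yars were not called at 1 h (0.24 and 0.29) and rose by 1.34 and 1.09 at 2 h. Mars was the synthetase called higher from 2 to 4 h (0.72 ± 0.22, adjusted p = 0.00959), while Rars and Qars (glutamine) were called lower over that step (-0.36 and -0.29). With upper-quartile scaling those steps were -0.16 (0.165) and -0.09 (0.464).

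A few synthetases did not clearly follow. Vars (valine) and Dars (aspartate) were called at no time in WT cells, which does not show that they were unchanged. From 0 to 4 h Dars went from 191.1 to 234.1 normalized counts per kb and Vars from 170.6 to 145.5. Qars was called higher at 1 h (0.24, adjusted p = 0.0441) and lower at 4 h (-0.23, adjusted p = 0.0345). Its values at 4 h, 374, 412, 396 and 389, overlapped those at 0 h, 389, 455, 527 and 484, and the 4 h call was lost with the deposited scaling (-0.14, adjusted p = 0.224). Sars (serine) rose by 0.28 at 4 h (adjusted p = 0.049).

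**Figure D2:**
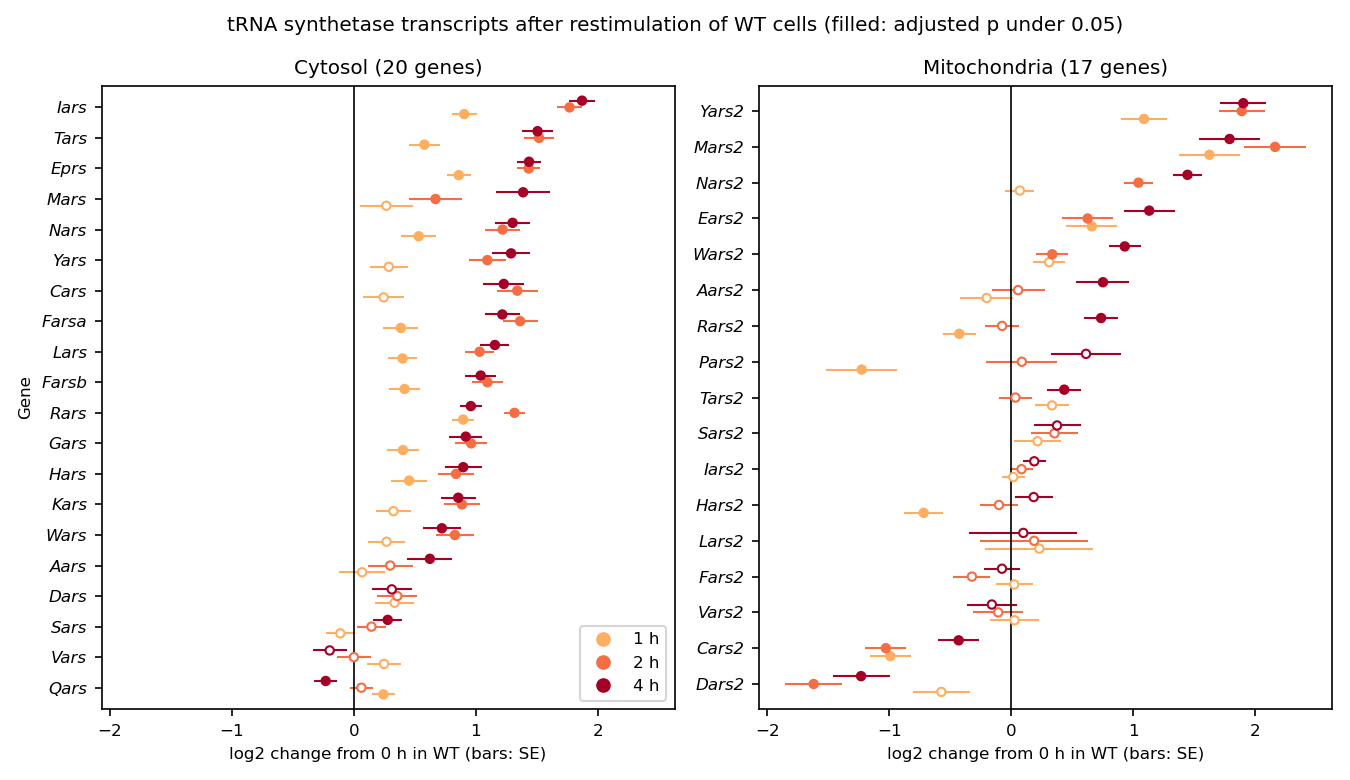
log2 change from 0 h (horizontal axis, bars are SE) of tRNA synthetase transcripts (vertical axis) at 1, 2 and 4 h in WT cells, with filled points for an adjusted p under 0.05. Iars reaches 1.87 at 4 h, whereas Qars is at -0.23, and Vars and Dars have no filled point.

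Most of the 34 genes also rose by 4 h in the libraries labelled DKO, KO and TKO. From 0 to 4 h 23 of the 34 rose in DKO cells, 27 in KO cells and 21 in TKO cells, against 28.2%, 33% and 27.3% of all genes, and 21 rose in all 4 genotypes (20.8% of all genes). The test of the difference between a knockout and WT cells in the change from 0 h called 0 of the 34 at 1, 2 or 4 h for DKO cells (0.105%, 0.347% and 0.818% of all genes) and for KO cells (0.0248%, 0.204% and 2.19%). There were at most 5 and 3 at an unadjusted p under 0.05, and 0 by limma voom on recovered reads. Over 4 scalings up to 1, 2 and 2 were called lower at 1, 2 and 4 h for DKO cells. For KO cells it was up to 1 at each time.

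For TKO cells that test called 0 at 1 h (0.781% of all genes; 1 at an unadjusted p under 0.05, 0 by limma voom) and then Iars and Cars, both lower. Of all genes 4.58% were called for the change to 2 h and 6.61% for that to 4 h. At an unadjusted p under 0.05 there were 10 of the followed genes at 2 h and 7 at 4 h. Over 4 scalings 0 to 9 were called lower at 1 h and 2 to 10 at each of 2 and 4 h. The highest counts came with the deposited scaling, where 13.7%, 6.6% and 7.41% of all genes were called lower. Iars differed by -0.80 ± 0.15 at 2 h (adjusted p = 0.000207) and -0.84 ± 0.15 at 4 h (9.33e-05). Its TKO values were 969, 940.2, 976 and 920.0 at 0 h and 2059.7, 1787, 2110.5 and 1855 at 4 h, so it began above the WT libraries and overlapped them at 4 h. Cars differed by -0.78 ± 0.24 (0.0451) and -0.85 ± 0.24 (0.0183). The 2 h call for Cars was lost in 14 alternatives, and its 4 h call with no filter on low values (0.057) or without library 4 of TKO at 4 h (0.0506), library 2 of WT at 0 h (0.0506) or library 4 of WT at 4 h (0.0662).

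Before restimulation most of these transcripts were already higher in cells floxed for all 3 genes. At 0 h 23 of the 34 were higher in TKO than in WT cells and 0 lower, where 19.3% of all genes were called higher and 18% lower. They were 3 of 6 regulators, 5 of 6 amino acid synthesis enzymes, 0 of 2 one-carbon enzymes and 15 of 20 synthetases. The median difference of the 34 exceeded that of all genes by 0.379. A scaling shifts all genes of a library nearly alike, so this excess could hardly move (0.377 to 0.381 over 4 scalings). The number called higher was 18 to 25 over those scalings. The count was 13 without library 4 of WT at 0 h and 9 when only the groups compared were fitted. The B cell marker Cd79b was also higher in TKO cells at 0 h (2.37 ± 0.47, from a mean of 0.369 CPM to 2.58 CPM), while the mean of the B cell marker Ms4a1 was 0.184 CPM in WT cells and 0.0590 CPM in TKO cells. Of 2 dendritic cell markers tested 1 was lower in TKO cells at 0 h, and of 2 CD8 T cell markers 0 were called. The part of such cells in these differences was not tested.

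Asns differed most. Its values at 0 h were 121, 144, 138 and 113 in TKO cells, 56.2, 18.9, 102 and 43.5 in DKO cells and 34.9, 47.0, 44.5 and 44.6 in KO cells. Every TKO library was above every library of the other genotypes. Against WT the difference was 2.80 ± 0.34 (adjusted p = 4.47e-09), and it stayed called at 1, 2 and 4 h (2.95, 2.06 and 1.56) without overlap of the groups. TKO cells also exceeded DKO cells by 1.44 ± 0.34 (0.00301) and KO cells by 1.57 ± 0.34 (0.000884). The difference from DKO cells was not called when only those groups were fitted (1.39, adjusted p = 0.0665).

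Atf4 was 416, 456, 478 and 574 in TKO cells at 0 h, all above the WT libraries given above. DKO cells had 363, 295, 372 and 307 and KO cells 327, 252, 343 and 390.3, which overlapped WT. The TKO difference from WT was 0.62 ± 0.19 (adjusted p = 0.00784), and without library 4 of WT at 0 h it was 0.48 (0.0587). Atf4 was not called in TKO against WT cells at 1, 2 or 4 h.

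Ddit3 was higher by 1.10 ± 0.28 in TKO cells at 0 h (adjusted p = 0.00142), with 92.0, 183, 87.2 and 70.0 against 46.6, 48.0, 64.2 and 32.6 in WT cells, which did not overlap. Mars, which overlaps the end of Ddit3, was also called higher in TKO cells at 0 h. Cebpb was higher by 1.72 ± 0.45 at 0 h and 2.00 ± 0.45 at 2 h, on 1 to 15 reads a library at 0 h, and it overlaps Tmem189 on the opposite strand, which had 3848.0% as many reads. Trib3 was not called at 0 h (0.38) and was higher at 1 h (1.12, adjusted p = 0.033) and 2 h (1.35, adjusted p = 0.00827). The 2 h call was lost without library 2 of WT at 2 h (1.09, adjusted p = 0.0514), and 5 of the single libraries at 1 h each ended the 1 h call when left out. Sesn2, Shmt2 and Mthfd2 were called at no time in TKO against WT cells. Shmt2 was higher in TKO than in DKO cells at 0 h (0.70, adjusted p = 0.0142), a call lost with the deposited scaling (0.48, 0.0968).

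In the serine and proline branches, Phgdh was higher by 0.64 at 0 h (0.37, adjusted p = 0.135 without library 4 of WT at 0 h) and Aldh18a1 by 0.41 ± 0.10 (adjusted p = 0.00159). Psat1 was higher by 0.41 ± 0.17 at 0 h (0.0457), a call lost in 10 alternatives, and by 0.69 ± 0.17 at 4 h (0.000719). At 4 h its TKO values were 1519, 1349, 1478 and 1465 and its WT values 773, 829, 818 and 1237, with no overlap. Pycr1 was higher by 1.98 ± 0.61 at 0 h on 0 to 20 reads a library, and without library 1 of WT at 0 h the difference was 1.30 (adjusted p = 0.102).

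Among synthetases at 0 h the largest TKO differences from WT were in Iars (0.64 ± 0.10, adjusted p = 2.48e-06), Cars (0.63 ± 0.17), Yars (0.63 ± 0.15), Lars (leucine, 0.59 ± 0.12), Mars (0.57 ± 0.22) and Nars (0.56 ± 0.14). Eprs was 1294, 1301, 1359 and 1536 in TKO cells, and 982, 1076, 1037 and 783 in WT cells. It was 801, 859.8, 1064 and 841 in DKO cells and 877, 1021, 995 and 1091 in KO cells. The TKO libraries lay above all others, and the difference from WT was 0.51 ± 0.10 (4.62e-05).

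**Figure D3:**
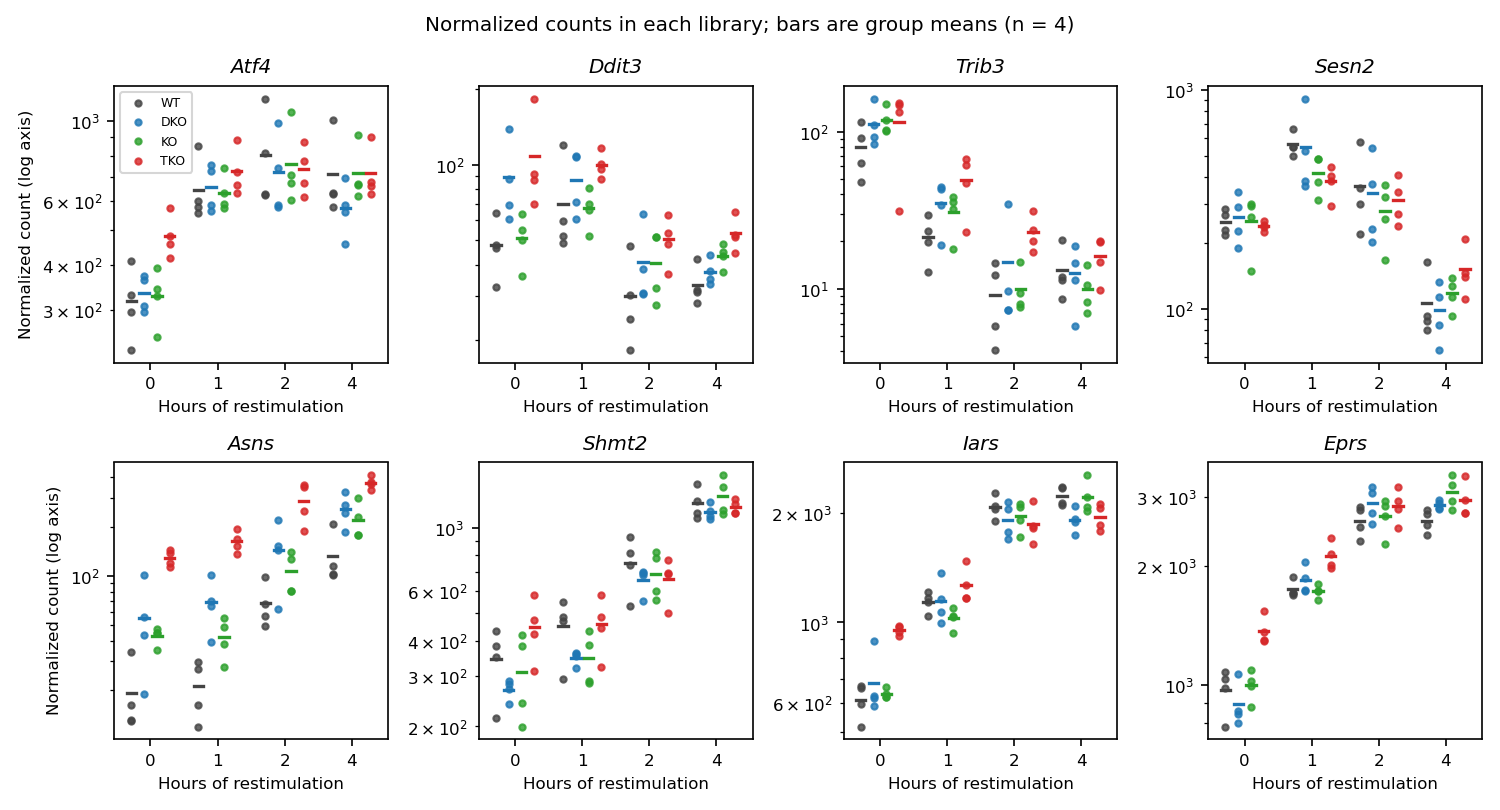
Normalized counts of selected genes in each library (log axis) by hours of restimulation, with points for libraries and bars for group means (n = 4). For Asns the 4 TKO libraries at 0 h (113 to 144) sit above all WT libraries at 0 h (12.9 to 34.3).

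During restimulation fewer of the genes were called in TKO cells. Of the 34 genes 14 were higher and 1 lower at 1 h (15.8% and 15.7% of all genes), 8 higher at 2 h (20% of all genes) and 10 higher at 4 h (27.4%). The counts at 2 and 4 h were near the shares of all genes. The median of the 34 exceeded that of all genes by 0.277, 0.086 and 0.066. Synthetases called higher numbered 8, 2 and 6 of 20, against the same 15.8%, 20% and 27.4%. Their count was below the share of all genes at 2 h and near it at 4 h. Asns, Lars and Sars were called higher at all 4 times, as were 7.45% of all genes, a share near that of the 34. The gene called lower at 1 h was Vars (-0.37, adjusted p = 0.0332), whose call was lost in 8 alternatives, among them without library 1 of WT at 1 h (-0.26, adjusted p = 0.163). With the deposited scaling 1 gene was higher and 4 lower at 1 h, since that scaling moved the median of all genes to -0.23.

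Calls between TKO cells and the other knockouts were also most frequent at 0 h. Against DKO cells 15 of the 34 were higher at 0 h (8.73% of all genes), and at 1, 2 and 4 h 1 each time, Asns, Asns and Psat1 (2.55%, 3.32% and 7.47% of all genes). The Asns call at 1 h was lost without library 4 of DKO cells (1.04, adjusted p = 0.103), the Asns call at 2 h in 7 alternatives (among them 0.71, 0.267 without library 1 of DKO cells) and the Psat1 call in 11 (0.41, 0.144 without library 2 of DKO cells). The count at 0 h was 8 without library 4 of TKO cells and 2 when only the groups compared were fitted. Over 4 scalings it was 5 to 15. Against KO cells 22 were higher at 0 h (11.4%), 6 at 1 h (5.74%), 4 at 2 h (7%) and 0 at 4 h (2.59% in either direction; 3 at an unadjusted p under 0.05 and 1 by limma voom). The 0 h count was 12 without library 1 or 2 of KO cells or library 4 of TKO cells. It was 14 when only the groups compared were fitted, and 10 to 22 over 4 scalings. The 1 h count was 1 without library 4 of KO or of TKO cells. The 11 genes higher in TKO cells at 0 h than in all 3 other genotypes were Aldh18a1, Asns, Eprs, Farsa, Gars, Iars, Lars, Nars, Psat1, Tars and Yars, and 4.4% of all genes passed the same 3 tests. Some of these calls were lost in alternatives, such as the Psat1 call against WT, lost in 10. With only the groups compared, the calls against DKO cells were lost for Asns (adjusted p = 0.0665), Tars (0.0714) and Yars (0.0585). The Yars call was also lost with the deposited scaling (0.32, adjusted p = 0.149). These comparisons share the TKO libraries.

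Non-additivity, the TKO difference from WT minus the sum of the DKO and KO differences, was called for 1 of the 34 at 0 h, where 0.83% of all genes were called. That gene was Eprs (0.58 ± 0.14, adjusted p = 0.0207). The call was lost with the deposited scaling (0.11, adjusted p = 0.59), upper-quartile factors (0.44, 0.11), no filter on low values (0.54, 0.113) or only the groups compared (0.50, 0.555). It was also lost without library 1 of DKO (0.074), library 1 of KO (0.0698), library 4 of TKO (0.0941) or library 1, 2 or 3 of WT cells (0.0552, 0.0791 and 0.0668) at 0 h. Without library 4 of WT at 0 h 11 genes were called. Asns gave 0.21 (0.907) and Atf4 0.46 (0.521). At 1, 2 and 4 h 0 were called (0.254%, 0.155% and 0.167% of all genes; 4, 2 and 0 at an unadjusted p under 0.05, 0 by limma voom).

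Fewer of these genes were called in DKO and KO cells, and the counts at 0 h depended on the scaling and the fit. In DKO cells 2 were higher and 1 lower at 0 h (5.33% and 2.27% of all genes), 1 higher at 1 h (5.94%), 3 higher at 2 h (7.96%) and 0 at 4 h (5.38% in either direction; 4 at an unadjusted p under 0.05 and 1 by limma voom). With the deposited scaling 11 were higher at 0 h (25.2% of all genes, whose median moved to 0.23), and 0 were called when only the groups compared were fitted. Asns was higher in DKO cells by 1.36 ± 0.34 at 0 h (adjusted p = 0.00609) and 1.67 ± 0.34 at 1 h (0.00053). The 0 h groups overlapped, and the call was lost without library 3 of DKO cells (0.99, adjusted p = 0.0966), by limma voom (1.43, 0.0699) and with only the groups compared (1.42, 0.154). Ddit3 was higher at 0 h (0.85, adjusted p = 0.0452, and 0.61, 0.29 without that library, 1 of 7 alternatives that ended the call), and Rars was lower (-0.29, adjusted p = 0.0342, and -0.01, 0.955 with the deposited scaling). Cd79b was higher in DKO cells at 0 h by 1.43.

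In KO cells 1 gene was higher at 0 h (1.17% of all genes), 0 were called at 1 and 2 h (2.16% and 5.93%; 1 and 2 at an unadjusted p under 0.05, 0 by limma voom at each), and 4 were higher at 4 h (21.7%). With the deposited scaling 7 were higher at 0 h (15.2% of all genes, whose median moved to 0.22), and 0 with only the groups compared. The gene at 0 h was Asns (1.23 ± 0.34, adjusted p = 0.0486), a call that was lost without 7 of the 8 libraries left out in turn. The 4 at 4 h were Psat1 (0.46), Qars (0.43), Rars (0.36) and Aldh18a1 (0.31), and with the deposited scaling these were 0.19, 0.15, 0.08 and 0.03, with none of the 4 called. The count was 0 without library 3 or library 4 of KO cells.

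**Figure D4:**
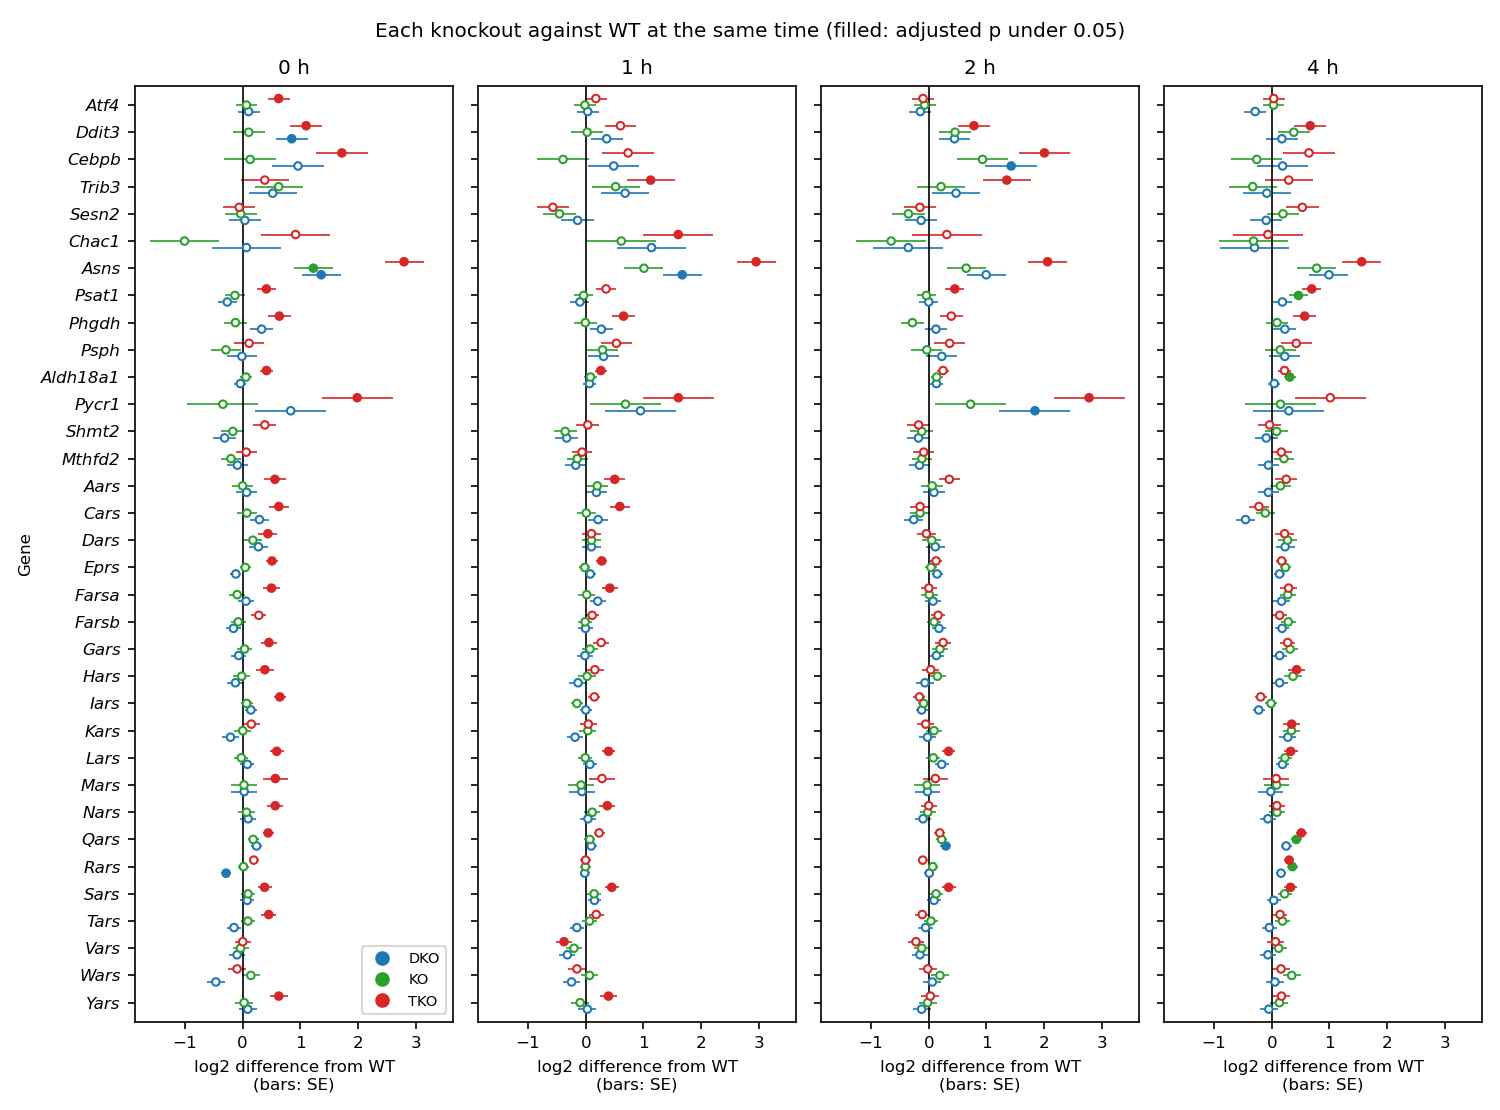
log2 difference from WT at the same time (horizontal axis, bars are SE) of the 34 genes (vertical axis) in DKO, KO and TKO cells, with filled points for an adjusted p under 0.05. TKO points are to the right of 0 for most genes at 0 h, and Asns is at 2.80.

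Genes of neighbouring pathways were counted in the same fits. Of 20 other genes linked to ATF4, 10 rose and 0 fell at 1 h in WT cells (18.7% and 12.4% of all genes), and 11 rose and 2 fell at 4 h (24.6% and 27.1%). They included Bcat1, a branched-chain aminotransferase (4.29 at 4 h), Cth, a cysteine synthesis enzyme (3.58), and the stress factor Atf3 (7.79 at 1 h, 3.43 at 4 h). Before restimulation 10 of the 20 were higher and 0 lower in TKO cells (19.3% and 18% of all genes), with Atf3 at 2.71, Cth at 2.06 and Nupr1 at 2.00. Of 16 kinases, subunits and phosphatase subunits of the eIF2 system, 11 rose and 2 fell at 4 h in WT cells, against the same 24.6% and 27.1%. Ppp1r15a, which directs the phosphatase to eIF2, rose by 3.12 ± 0.29 at 1 h, and the eIF2 kinase gene Eif2ak2 fell by 2.39 on the log2 scale at 4 h.

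For the lists that follow, 24.6% of all genes rose and 27.1% fell at 4 h in WT cells, and 19.3% were higher and 18% lower in TKO cells at 0 h. All 3 scaffold genes of the multisynthetase complex rose at 4 h in WT cells, led by Eef1e1 (2.50 ± 0.16), and none was called in TKO against WT cells (0 of 3 at each of the 4 times). Of 17 mitochondrial tRNA synthetases, 8 rose and 2 fell at 4 h, among them Yars2 (1.90) and Mars2 (1.79), and 3 were higher in TKO cells at 0 h, a share near that of all genes. Of 20 other serine, proline and one-carbon genes, 9 rose and 4 fell at 4 h, with Shmt1 at 2.95, and 3 were higher and 1 lower in TKO cells at 0 h. Of 16 genes in the XBP1 and ATF6 arms of the unfolded protein response, 6 rose and 4 fell at 4 h in WT cells. In TKO cells 10, 7, 11 and 12 of these 16 were higher at 0, 1, 2 and 4 h and 0 lower, where 19.3%, 15.8%, 20% and 27.4% of all genes were higher. They included the chaperone gene Hspa5 (0.88 at 0 h), Pdia6 (1.16) and Atf6 (1.13).

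Genes with and without TGATGNAA in the promoter were set side by side as a description. In WT cells the 9 genes with it had a median change of 0.17 at 1 h, 1.09 at 2 h and 1.20 at 4 h, and the 18 without it 0.33, 0.54 and 0.77. The genes with it were thus lower in median at 1 h and higher at 2 and 4 h. At 0 h in TKO cells 7 of the 9 and 12 of the 18 were higher than in WT cells (19.3% of all genes), with medians of 0.63 and 0.42. At 4 h in WT cells 6 of the 9 genes with it rose and 1 fell. Of the 18 genes without it in these 300 bases 12 rose and 2 fell. Among all genes 24.6% rose and 27.1% fell. Whether the element had a part in these changes was not tested.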

How the data were processed

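Total RNA was extracted with Trizol and made into libraries with a NuGEN kit, per the labels' protocols, and the genome build was GRCm38, per the submitters' processing notes. Which aligner, counter, annotation and strand setting the authors used was not given in the sources used here. Per the file headers, the authors deposited lists of 4 normalized counts for each gene and group, without replicate numbers. In every library 100% of low values were whole multiples of 1 read (tolerance 0.1 read), which gave a median depth of 7720297 reads. The design foresaw a count model for raw counts and limma for other values, and limma was used.

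Values were rescaled with TMM factors (trims of 30 and 5 percent). Genes were kept with at least 10 reads at the median depth in at least 4 libraries and a sum of at least 15, which left 16140. limma 3.58.1 (R 4.3.3) was fitted to log2(value + 1) with 1 mean per group over 64 libraries (48 residual degrees of freedom), trended and robust, with 2-sided p-values adjusted by Benjamini-Hochberg. This scale understates changes of low genes. The procedure was tested on simulated counts with the same dispersion for all genes and no library-wide shifts in composition. That test does not cover the differences between scalings reported here. Nothing in the labels ties the 4 libraries to separate animals or cultures. The p-values therefore measure only how these libraries vary, and that variation may be technical. The WT libraries are shared by the genotype comparisons.

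The 34 genes and the other lists were chosen with earlier results of these data known. Always named were Atf4, Ddit3, Asns, Chac1, Trib3, Sesn2, Psat1, Phgdh, Shmt2 and Mthfd2, and then called genes by size of change, at most 8 a direction for WT times and 6 for other comparisons. From other lists the called genes of largest change were named. Gene positions, exon lengths and overlaps came from the GENCODE M21 annotation. Alternatives were other scalings, pseudocounts and filters, limma voom on recovered reads, a fit of only the groups compared, and leaving out each library.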

Additional observations from a re-analysis of the deposited data

Results flagged for a closer look

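In groups of 4 libraries a library was singled out when its gap to the nearest other, divided by the range of the group, exceeded Dixon's critical value. Chance gives about 1 in 20 groups (5%), and 14 of 160 groups of the named genes (8.75%) exceeded it. In WT cells at 4 h the highest library stood apart for Atf4 (0.875), Sesn2 (0.842), Asns (0.870), Psat1 (0.881) and Mthfd2 (0.884), each time library 4 of the list. The highest library also stood apart for Atf4 in WT cells at 1 h (0.850) and KO cells at 4 h (0.841). The same held for Ddit3 in WT cells at 1 h (0.849), Asns in WT cells at 0 h (0.841), Trib3 in DKO cells at 2 h (0.916) and Psat1 in TKO cells at 1 h (0.955). The lowest library stood apart for Trib3 in TKO cells at 0 h (0.836), Chac1 in WT cells at 0 h (0.870) and Shmt2 in DKO cells at 2 h (0.885).

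The change from 0 h differed between TKO and WT cells by a test of the difference itself for Cars (-0.78 at 2 h and -0.85 at 4 h) and Iars (-0.80 at 2 h and -0.84 at 4 h). More genes were called lower by that test with the deposited scaling. The Cars calls were lost with no filter on low values (limma adjusted p = 0.125 at 2 h and 0.057 at 4 h), among other alternatives. For Eprs at 0 h the TKO difference from WT exceeded the sum of the DKO and KO differences by 0.58. That call was lost in several alternatives, among them the deposited scaling (0.11, limma adjusted p = 0.59).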

How the results depend on the processing

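No paired analysis was possible because the deposited lists carry no replicate numbers. The foreseen quasi-likelihood count model was not run because the values are normalized. The scaling moved the median of all genes by over 0.1 in 31 of 38 comparisons, at most by 0.527, so counts of called genes depend on it. No named value changed sign past the threshold under any alternative run (0 reversed). The counts of the 34 genes called in WT cells at 2 and 4 h against 0 h stayed within 1.5 times under every alternative. Causes of the changes below were not tested.

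With the deposited scaling the count went from 14 to 22 for WT at 1 h, and against WT to 11 (DKO 0 h), 0 (DKO 2 h), 7 (KO 0 h), 1 (KO 4 h), 5 (TKO 1 h) and 5 (TKO 4 h). Calls for the change from 0 h summed over times went to 5 (DKO), 3 (KO) and 29 (TKO, from 4), and those summed over times to 7 from 18 (TKO against DKO) and 16 from 32 (TKO against KO). Median-of-ratios factors gave 1 (DKO 2 h), 1 (DKO 4 h), 0 (KO 0 h), 1 (KO 4 h), 4 (TKO 4 h) and 3 (non-additivity). Upper-quartile factors gave 13 (WT 4 against 2 h, from 7), 1 (DKO 2 h), 2 (DKO 4 h), 1 (KO 4 h), 5 (TKO 4 h), 1 and 11 (change from 0 h in DKO and TKO) and 0 (non-additivity). A pseudocount of 5 gave 0 (KO 0 h). No filter gave 0 (KO 0 h), 14 (KO 4 h), 2 (change from 0 h in TKO) and 0 (non-additivity). A filter of 50 reads gave 0 (DKO 2 h), 2 (DKO 4 h), 0 (KO 4 h), 5 (TKO 2 h), 5 (TKO 4 h) and 9 (change from 0 h in TKO). limma voom gave 1 (DKO 4 h), 0 (KO 0 h) and 8 (KO 4 h). Fitting only the groups compared gave 6 (WT 1 h), 0 (DKO 0 h), 0 (DKO 2 h), 1 (DKO 4 h), 0 (KO 0 h), 0 (KO 4 h), 9 (TKO 0 h), 7 (TKO 1 h), 5 (TKO 2 h), 4 (TKO against DKO) and 0 (non-additivity).

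Leaving out 1 library gave 9 to 18 (WT 1 h), 0 to 4 (DKO 0 h), 1 to 2 (DKO 1 h), 0 to 4 (DKO 2 h), 0 to 1 (DKO 4 h), 0 to 1 (KO 0 h), 0 to 9 (KO 4 h), 13 to 25 (TKO 0 h), 6 to 17 (TKO 1 h), 5 to 12 (TKO 2 h) and 5 to 14 (TKO 4 h). For the change from 0 h it gave 0 to 1 (DKO), 0 to 2 (KO) and 3 to 8 (TKO), for TKO against DKO 11 to 22, and for non-additivity 0 to 11. Cebpb, Chac1 and Pycr1 had so few reads that only large differences could be detected.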
